A study of Mus musculus with 6 samples.

Results

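The Cyp2c genes encode a family of cytochrome P450 enzymes, and their mRNA was compared here between the livers of NZB and SM mice. The family was taken as 10 listed genes, and its members were all probe sets whose annotation names one of these genes alone. A probe set is a group of short probes on the array that reads one transcript. The rule found 9 probe sets for 9 genes, Cyp2c23, Cyp2c29, Cyp2c37, Cyp2c38, Cyp2c39, Cyp2c50, Cyp2c54, Cyp2c55 and Cyp2c70, out of 34945 probe sets paired with 1 gene and 18193 genes in all. The listed gene Cyp2c40 had no probe set of its own and was not analysed here. Cyp2c44 is an alias of Cyp2c23. The probe set of Cyp2c23 carries the suffix _s_at, which marks probes that can read more than one transcript, and the other 8 carry neither _s_at nor _x_at.

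Liver RNA came from 6 female mice aged 8 weeks, 3 of the inbred strain NZB/BinJ (NZB) and 3 of the inbred strain SM/J (SM), with 1 array for each mouse. The Jackson Lab supplied both strains. All mice were weaned at 3 weeks and kept on chow, went without food for 4 hours and were perfused with 50 mL of PBS. The strains are inbred, so each stands for 1 genotype. Readings are log2 expression values, on which a step of 1 is a doubling. Differences are NZB minus SM with the standard error (SE) of a limma fit across all 45037 probe sets, and "higher" or "lower" stands for a Benjamini-Hochberg adjusted p under 0.05.

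Cyp2c enzymes are microsomal monooxygenases that sit in the endoplasmic reticulum, carry a haem group and take electrons from the reductase Por. They are abundant in hepatocytes, where they oxidize drugs and also fatty acids. Several of them turn arachidonic acid into epoxides, lipid mediators that epoxide hydrolases then remove. Mouse Cyp2c70 instead makes muricholic acids, the bile acids typical of mice. In the RefSeq gene order of the mouse assembly GRCm38.p6, 14 protein-coding Cyp2c genes follow each other on chromosome 19, and Cyp2c23 lies apart from them on the same chromosome.

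The array medians ran from 6.64 to 6.66 in NZB and from 6.60 to 6.64 in SM. SM replicate 2 read 7.32 on the brightest probe set of Xist, the RNA of the inactive X chromosome, against 12.6 to 12.7 in NZB and 12.84 and 12.91 in the other SM livers, so this array stood apart from its label's group in that gene. The 9 probe sets of 3 Y-linked genes read at most 5.40 in that array and at most 5.67 in the other arrays, and 5.67 is used here as the background. The differences of the family members and the counts of the gene lists are given with and without it. The 11 measured hepatocyte markers of a list of 12 averaged 13.2 to 13.4 in NZB livers and 13.4 to 13.5 in SM livers, and 2 of them, Tat and Hnf4a, were lower in NZB (Tat alone without SM replicate 2). Over all 18193 genes, each counted by its brightest probe set, 11.2% were lower in NZB and 7.09% higher. Readings of a bulk sample cannot tell fewer cells of a type from less RNA per cell. Nothing in the labels says more of the mice of a strain than that they are biological replicates, and 3 arrays per strain limit the precision of every value.

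Upstream sequences show how close several of these genes are to one another. RefSeq promoter windows of 300 bases, 250 before and 50 after the gene start, were at hand for 8 of the 10 listed genes in the build GRCm38.p6, which is the sequence of strain C57BL/6J and not of NZB or SM. The windows printed are from the genes most alike upstream within the family, with a single window for each gene. They are shown so that near-copies can be compared with the readings of their genes. Cyp2c29, Cyp2c39 and Cyp2c38 form a group, as do Cyp2c37 and Cyp2c50. Capitals mark the letters CAAAGTC, the core of the binding motif of the hepatocyte nuclear receptor Hnf4a, searched on both strands.
Cyp2c29, chr19:39286835-39287134, forward strand: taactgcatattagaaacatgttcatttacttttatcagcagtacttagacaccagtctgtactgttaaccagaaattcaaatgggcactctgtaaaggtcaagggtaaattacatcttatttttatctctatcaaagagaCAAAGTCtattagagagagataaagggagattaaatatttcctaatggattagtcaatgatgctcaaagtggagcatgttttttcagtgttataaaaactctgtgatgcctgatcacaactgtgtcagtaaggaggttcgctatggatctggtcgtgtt
Cyp2c39, chr19:39510572-39510871, forward strand: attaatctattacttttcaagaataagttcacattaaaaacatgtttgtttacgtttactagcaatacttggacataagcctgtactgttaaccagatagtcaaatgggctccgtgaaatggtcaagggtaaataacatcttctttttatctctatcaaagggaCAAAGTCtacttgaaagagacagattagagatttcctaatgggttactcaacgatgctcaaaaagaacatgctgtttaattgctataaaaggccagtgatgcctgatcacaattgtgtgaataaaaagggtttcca
Cyp2c38, chr19:39463026-39463325, reverse strand: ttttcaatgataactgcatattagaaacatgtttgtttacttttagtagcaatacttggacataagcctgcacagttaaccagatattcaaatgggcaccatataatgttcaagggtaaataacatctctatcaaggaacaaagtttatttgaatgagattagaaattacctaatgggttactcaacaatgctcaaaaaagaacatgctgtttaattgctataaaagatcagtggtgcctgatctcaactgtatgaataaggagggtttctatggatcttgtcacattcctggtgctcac
Cyp2c37, chr19:39992174-39992473, forward strand: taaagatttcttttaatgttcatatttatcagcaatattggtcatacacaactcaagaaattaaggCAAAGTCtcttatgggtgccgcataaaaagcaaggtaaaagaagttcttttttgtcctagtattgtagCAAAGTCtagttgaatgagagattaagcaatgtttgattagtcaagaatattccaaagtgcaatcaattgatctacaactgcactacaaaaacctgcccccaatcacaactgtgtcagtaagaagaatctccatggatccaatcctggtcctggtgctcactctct
Cyp2c50, chr19:40089429-40089728, forward strand: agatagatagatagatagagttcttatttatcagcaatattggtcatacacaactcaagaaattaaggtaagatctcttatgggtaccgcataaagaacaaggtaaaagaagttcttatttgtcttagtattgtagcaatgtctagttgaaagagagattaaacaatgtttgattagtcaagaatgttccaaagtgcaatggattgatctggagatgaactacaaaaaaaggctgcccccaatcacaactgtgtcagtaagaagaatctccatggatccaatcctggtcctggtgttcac

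Over the bases that align, the windows of Cyp2c37 and Cyp2c50 were 90.1% identical and those of Cyp2c39 and Cyp2c38 were 88.2% identical. Cyp2c29 was 80.5% identical to this window of Cyp2c39 and 81.3% to that of Cyp2c38. A further window for Cyp2c39, not printed, was 90.7% identical to the printed one, 86.3% to that of Cyp2c38 and 81.9% to that of Cyp2c29. The letters CAAAGTC were found in 6 of 9 windows of the family, and in 4.44% of all 32851 windows of that length. They stood in the windows of Cyp2c29, Cyp2c37, Cyp2c39, Cyp2c40 and Cyp2c70, and not in those of Cyp2c38, Cyp2c50 and Cyp2c55. The TATA box letters TATAAA were likewise found in 6 of the 9 windows, and in 13.6% of all. These are matches of letters in related sequences and do not show binding.

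The family as a whole did not move one way. Of its 9 probe sets, 2 were lower in NZB, Cyp2c23 and Cyp2c38, none was higher and 7 did not pass the test, 3 of them narrowly. Across all probe sets 14.8% were called, 6.09% higher and 8.69% lower in NZB. At an unadjusted p under 0.05, limma put 5 of the 9 past, with Cyp2c50, Cyp2c54 and Cyp2c55 above zero, and 13184 of all 45037 probe sets. The 3 NZB livers lay wholly above the SM livers for 4 members and wholly below for 2, together 6 of 9, where 34.3% of all probe sets did not overlap. The median difference over the 9 members was 0.056, and over all probe sets it was 0.023. The plot of readings by liver shows this spread among members.

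**Figure D1:**
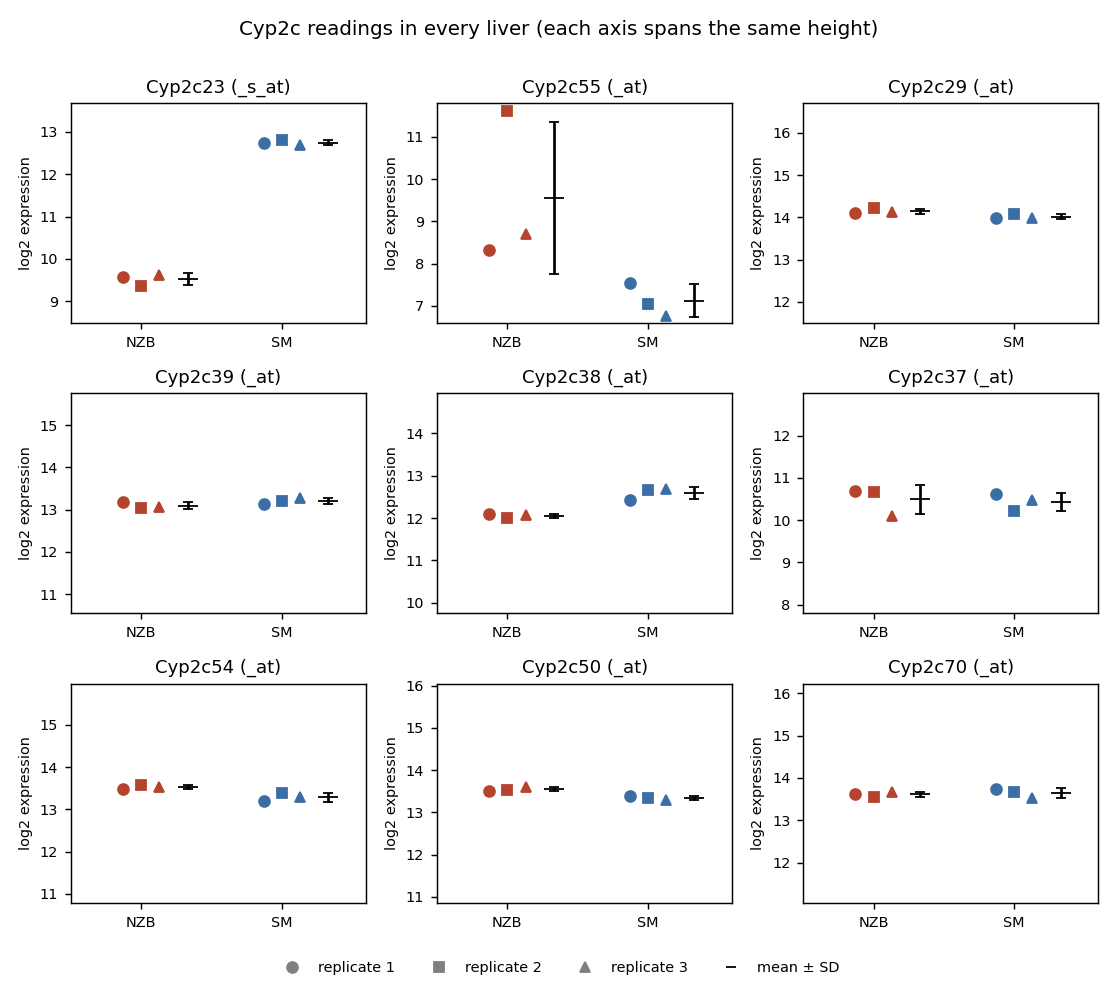
Log2 expression of the 9 Cyp2c probe sets in each liver, NZB left and SM right, with 1 point per mouse (marker shape gives the replicate number) and the mean with its SD in black; each vertical axis covers the same height. Cyp2c23 separates the strains widely, Cyp2c55 has 1 NZB liver at 11.6 far above the others, and the remaining 7 differ by 0.55 or less.

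Cyp2c23 was the member that differed most. The enzyme is an arachidonic acid epoxygenase, studied in mouse kidney and vessels under the name Cyp2c44. Its probe set 1424576_s_at read 9.58, 9.35 and 9.61 in the 3 NZB livers, against 12.75, 12.80 and 12.69 in the 3 SM livers. The NZB livers all lay far below the SM livers, and the mice of each strain sat close together. Means were 9.51 ± 0.14 in NZB and 12.75 ± 0.055 in SM (SD, n = 3 each), and the difference was -3.23 (SE 0.081, limma adjusted p = 8.74e-08), which is 9.39-fold lower in NZB. Of all 45037 probe sets, 13 were lower in NZB by more than this. The NZB readings stayed well above the background of 5.67. With SM replicate 2 left out the difference was -3.20 (SE 0.095, limma adjusted p = 3.17e-06). This is the only member whose identifier marks possible cross-hybridization, and no unmarked probe set of the gene was at hand to set beside it.

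By a fixed rule, the 3 genes outside the family whose readings ran most like those of Cyp2c23 over the 6 arrays were As3mt, Klf13 and Cyp39a1, out of 18182 genes that were set beside it. As3mt encodes the arsenic methyltransferase, Klf13 a transcription factor and Cyp39a1 an oxysterol hydroxylase. Pearson's r was 0.999 for each. The 6 points fall into 2 strains, so r mostly measures a wide and tight strain gap. As3mt differed by -2.21, Klf13 by -1.17 and Cyp39a1 by -5.92, all lower in NZB in the same fit. Cyp39a1 read 4.78 to 5.19 in NZB livers, under the background of 5.67, so the size of its difference is uncertain.

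The genes next to Cyp2c23 differed as well. All 6 measured neighbours, the 3 nearest on each side, passed the test, 3 of them higher in NZB and 3 lower. The exporter gene Abcc2 differed by 0.98 (SE 0.11, limma adjusted p = 0.000474), on a probe set marked _s_at. The carboxypeptidase subunit gene Cpn1 and the endoplasmic reticulum gene Erlin1 differed by 0.40 and 0.37. Dnmbp, a scaffold protein gene, differed by -0.79 (SE 0.14, limma adjusted p = 0.00556), Cwf19l1 by -0.64 and Bloc1s2 by -0.38. None of them approached the size of the Cyp2c23 difference. Each of these calls held with any 1 array left out. Around the main cluster only 1 of 6 measured neighbours passed, the LIM protein gene Pdlim1 at -0.33 (limma adjusted p = 0.0359). That call ended without NZB replicate 1 or 3 (0.109 and 0.126), without SM replicate 1 or 2 (0.0883 and 0.0618) and after quantile normalization (0.0955). The share of called genes among neighbours was compared with 7.09% of all 18193 genes higher and 11.2% lower in NZB, counting each gene by its brightest probe set.

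**Figure D2:**
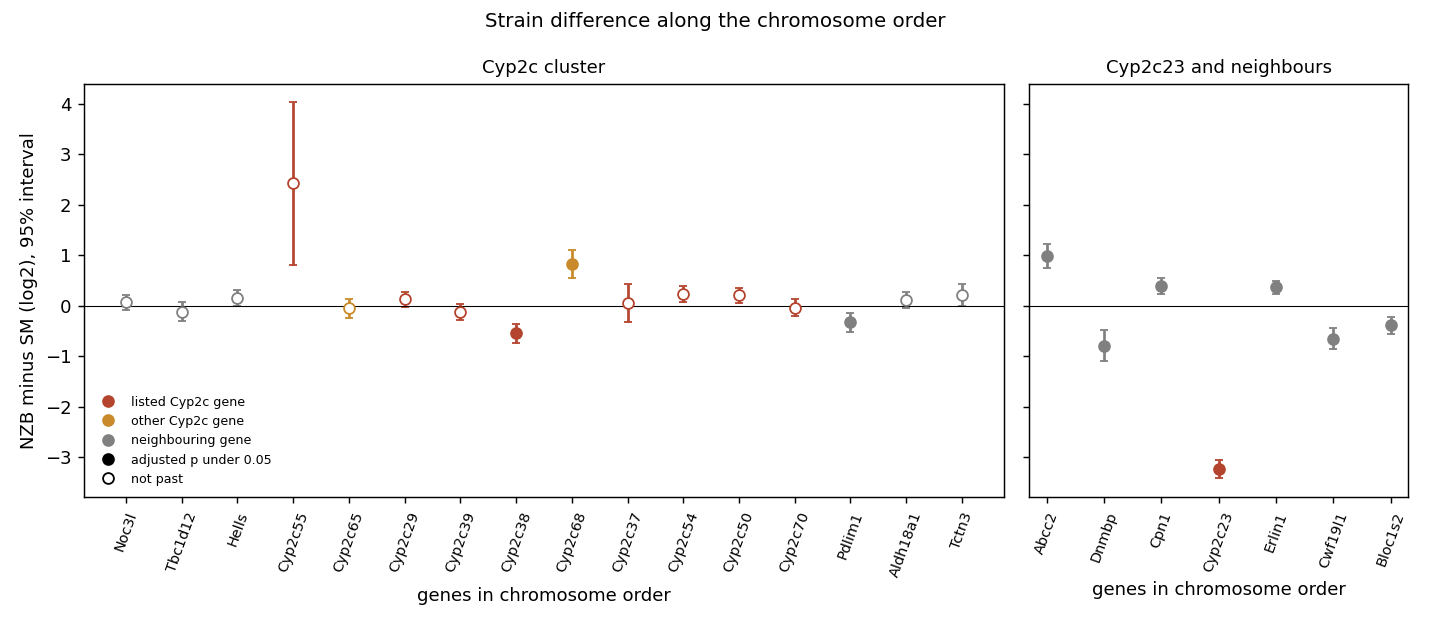
Strain difference in log2 units, NZB minus SM, with its 95% interval, for the measured genes in RefSeq order, the main Cyp2c cluster with 3 neighbours on each side at left and Cyp2c23 with its own at right; filled points passed the adjusted p of 0.05. Cyp2c23 sits at -3.23 between neighbours that range from -0.79 to 0.98, while the cluster genes lie between -0.55 and 0.24 except Cyp2c68 at 0.83 and Cyp2c55 at 2.42.

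Cyp2c38, the other member lower in NZB, encodes an arachidonic acid oxygenase and lies in the cluster beside Cyp2c39. Probe set 1452501_at read 12.09, 11.999 and 12.06 in NZB livers, against 12.43, 12.66 and 12.69 in SM livers. The groups did not overlap, and the NZB livers spread over 0.093 and the SM livers over 0.26. The difference was -0.55 (SE 0.080, limma adjusted p = 0.0025), 1.46-fold lower in NZB. It was -0.51 without SM replicate 2 (limma adjusted p = 0.0143).

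Cyp2c39 and Cyp2c29, closest to Cyp2c38 in upstream sequence, did not show this difference past the threshold. Cyp2c39, which hydroxylates retinoic acid, read 13.18, 13.03 and 13.06 on probe set 1421363_at in NZB livers, against 13.14, 13.21 and 13.27 in SM livers. The strains overlapped, with a difference of -0.11 (SE 0.069, 95% interval -0.27 to 0.044, limma adjusted p = 0.326). Cyp2c29, an epoxygenase that is induced by phenobarbital in mouse liver, read 14.09, 14.22 and 14.12 on probe set 1417651_at in NZB livers, against 13.98, 14.08 and 13.99 in SM livers. All NZB livers lay just above the SM livers, but the difference of 0.13 (SE 0.065, 95% interval -0.017 to 0.28) did not pass (limma adjusted p = 0.225). The highest value in the whole table was 14.9, and readings this close to the end of the scale can be compressed. When SM replicate 2 was left out, Cyp2c39 differed by -0.11 and Cyp2c29 by 0.16, again not past the threshold (limma adjusted p = 0.475 and 0.232). Whether the differences of Cyp2c38, Cyp2c39 and Cyp2c29 differ from each other was not tested.

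Cyp2c55 had the second largest difference and the widest spread. This enzyme hydroxylates arachidonic acid, is best known from the intestine, and is induced in mouse liver through the nuclear receptors CAR and PXR. Probe set 1419582_at read 8.33, 11.62 and 8.69 in NZB livers, against 7.54, 7.05 and 6.77 in SM livers. Every NZB liver lay above every SM liver, and NZB replicate 2 stood 3.10 above the mean of the other 2 NZB livers, the largest such excess in that array of all 45037 probe sets. Means were 9.55 ± 1.80 in NZB and 7.12 ± 0.39 in SM (SD, n = 3 each). The difference of 2.42 (SE 0.71, 95% interval 0.82 to 4.03), or 5.37-fold, missed the threshold (limma adjusted p = 0.0509). Without NZB replicate 2 it was smaller, 1.39, and passed (limma adjusted p = 0.0060). Without NZB replicate 1 it was 3.03 and passed as well (0.0313). It was 2.39 without SM replicate 2 and did not pass (0.132).

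The epoxygenase genes Cyp2c54 and Cyp2c50, neighbours in the cluster, both had every NZB liver above every SM liver, and both narrowly missed the threshold. Cyp2c54 read 13.49, 13.57 and 13.53 on probe set 1455457_at in NZB livers, against 13.19, 13.40 and 13.28 in SM livers. Its difference was 0.24 (SE 0.071, 95% interval 0.080 to 0.40, limma adjusted p = 0.0518). Cyp2c50 read 13.51, 13.52 and 13.61 on probe set 1418653_at in NZB livers, against 13.38, 13.34 and 13.29 in SM livers, a difference of 0.21 (SE 0.062, 95% interval 0.067 to 0.35, limma adjusted p = 0.0553). Both differences are small, 1.18-fold and 1.15-fold. Cyp2c54 passed without SM replicate 2, at 0.29 (limma adjusted p = 0.0446), and Cyp2c50 did not, at 0.21 (0.131).

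Cyp2c37 and Cyp2c70 showed overlapping strains. Cyp2c37 read 10.70, 10.67 and 10.09 on probe set 1419094_at in NZB livers, against 10.62, 10.21 and 10.47 in SM livers. The low NZB liver was replicate 3, and the ranges within each strain, 0.61 in NZB and 0.41 in SM, exceeded the difference of 0.056 (SE 0.16, 95% interval -0.31 to 0.43, limma adjusted p = 0.862). Cyp2c70 read 13.62, 13.55 and 13.67 on probe set 1424273_at in NZB livers, against 13.75, 13.67 and 13.52 in SM livers. Its strains overlapped as well, and it differed by -0.034 (SE 0.075, 95% interval -0.20 to 0.14, limma adjusted p = 0.809). With SM replicate 2 left out these differences were -0.055 and -0.023 (limma adjusted p = 0.889 and 0.911).

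2 further Cyp2c genes outside the list had a probe set of their own. Cyp2c68 read 13.63, 13.19 and 13.42 in NZB livers, against 12.46, 12.51 and 12.78 in SM livers, and was 1.77-fold higher in NZB (0.83, SE 0.12, limma adjusted p = 0.00237), a call that held with any 1 array left out. Cyp2c65 read 4.37 to 4.41 in NZB livers and 4.30 to 4.60 in SM livers, all under the background. Several Cyp2c genes are known as close copies of one another, and since no probe or transcript sequence was compared, whether a probe set also reads another member was not tested.

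**Figure D3:**
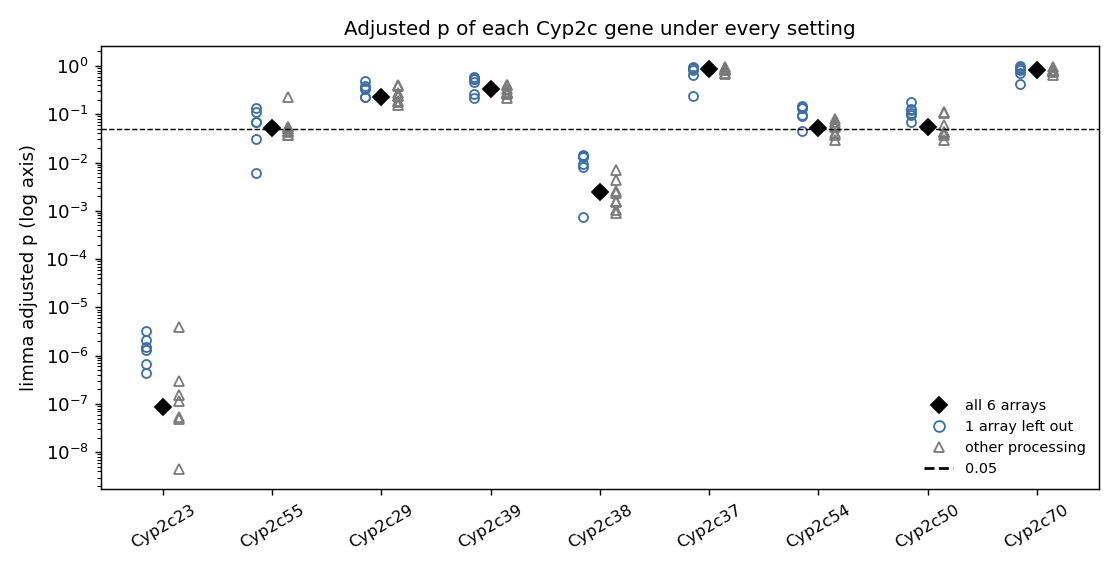
Limma adjusted p on a log axis for the 9 Cyp2c genes, with all 6 arrays (diamonds), with 1 array left out (circles) and with other processing (triangles); the dashed line marks 0.05. Cyp2c23 and Cyp2c38 stay below the line under every setting drawn, Cyp2c55, Cyp2c54 and Cyp2c50 straddle it, and the other 4 stay above.

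Genes that make or break down haem or pass electrons to P450 enzymes gave 3 calls among 9 measured, all lower in NZB, and the other 6 missed the threshold. Of all 18193 genes, 11.2% were lower and 7.09% higher. Por itself was not analysed here. Alas1, the rate-limiting enzyme of haem synthesis, read 10.78, 11.62 and 10.25 in NZB livers, against 12.25, 13.21 and 13.21 in SM livers. It was 4.03-fold lower in NZB (-2.01, SE 0.34, limma adjusted p = 0.00517), and its call ended in 1 alternative, trended and robust variances (adjusted p = 0.0644, the others going down to 0.00211). Hmox1, which breaks haem down, differed by -0.89 (SE 0.16, limma adjusted p = 0.0073), and Fech, which inserts the iron, by -0.33 (SE 0.060, limma adjusted p = 0.00741). The electron carriers Cyb5a, Cyb5b and Cyb5r3 differed by 0.026, 0.10 and 0.17 and did not pass. The list's median difference was 0.026, beside 0.021 over all genes. Leaving out SM replicate 2, the list again had 3 lower and 0 higher.

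Of 22 measured genes that release or convert arachidonic acid, 16 did not pass, 3 were lower in NZB and 3 higher, with a median difference of 0.16, where 11.2% of all genes were lower and 7.09% higher. The lower count is near its share and the higher count lies above its share, but both counts are small. The lower ones were the epoxygenase gene Cyp2j6 (-0.63, SE 0.079, limma adjusted p = 0.00106), the fatty acid hydroxylase gene Cyp4f15 (-0.30) and the prostaglandin synthase gene Ptges2 (-0.29). The higher ones were Cyp4f14 (0.43), the leukotriene accessory gene Alox5ap (0.33, SE 0.065, limma adjusted p = 0.0096) and the epoxygenase gene Cyp2j5 (0.32). The calls of Cyp2j6 and Alox5ap held with any 1 array left out. Without SM replicate 2 or NZB replicate 3 only 1 gene was called in each direction. Sizes changed little without SM replicate 2, to 0.32 for Cyp2j5, 0.45 for Cyp4f14, -0.27 for Cyp4f15 and -0.32 for Ptges2. The call of Cyp2j5 ended without NZB replicate 1 or 3 or SM replicate 2 (limma adjusted p = 0.0515 to 0.0591). That of Cyp4f14 ended without any array but SM replicate 1 (0.0575 to 0.11) and with array medians aligned (0.062). That of Cyp4f15 ended without NZB replicate 1 or 3 or SM replicate 2 or 3 (0.0502 to 0.0797), and that of Ptges2 without NZB replicate 2 or 3 or SM replicate 1 or 2 (0.0516 to 0.103). Quantile normalization also ended the last 2 (0.058 and 0.0922), and then 6 genes were higher and 1 lower. Ephx2, the soluble hydrolase that removes epoxides of arachidonic acid, differed by -0.24 and did not pass (limma adjusted p = 0.0731). Nor did the microsomal hydrolase gene Ephx1 at 0.41 (0.0769).

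Among 19 measured transcription factors and receptors that are known to control Cyp2c or other hepatic P450 genes, 6 were lower in NZB, 1 was higher and 12 did not pass, with a median difference of -0.10. Over all genes 11.2% were lower and 7.09% higher, and the single higher regulator is near that share. Cebpb, a factor of the acute phase and of gluconeogenesis, differed by -1.34 (SE 0.13, limma adjusted p = 0.000255). Nr1i2, which encodes the xenobiotic receptor PXR, read 8.73, 9.08 and 9.13 in NZB livers, against 10.07, 10.19 and 10.24 in SM livers, a difference of -1.18 (SE 0.11, limma adjusted p = 0.000159). The coactivator gene Ppargc1a differed by -1.09 (SE 0.16, limma adjusted p = 0.00257). Bcl6, a repressor that opposes Stat5 at sex-biased liver genes, was the member higher in NZB, by 0.40 (SE 0.072, limma adjusted p = 0.00668). These 4 calls held with any 1 array left out. Rxra, Hnf4a and Cebpa, named after their values were seen, completed the lower genes at -0.39, -0.38 and -0.25. Without SM replicate 2 the lower genes numbered 4. Hnf4a and Cebpa were those lost, though their differences of -0.39 and -0.29 were no smaller (limma adjusted p = 0.0513 and 0.0564). The call of Cebpa also ended without any other single array (0.0572 to 0.131), with array weights (0.0571) and with the replicate block (limma adjusted p = 0.0643). Nr1i3, which encodes CAR, differed by 0.10 and did not pass (limma adjusted p = 0.635).

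**Figure D4:**
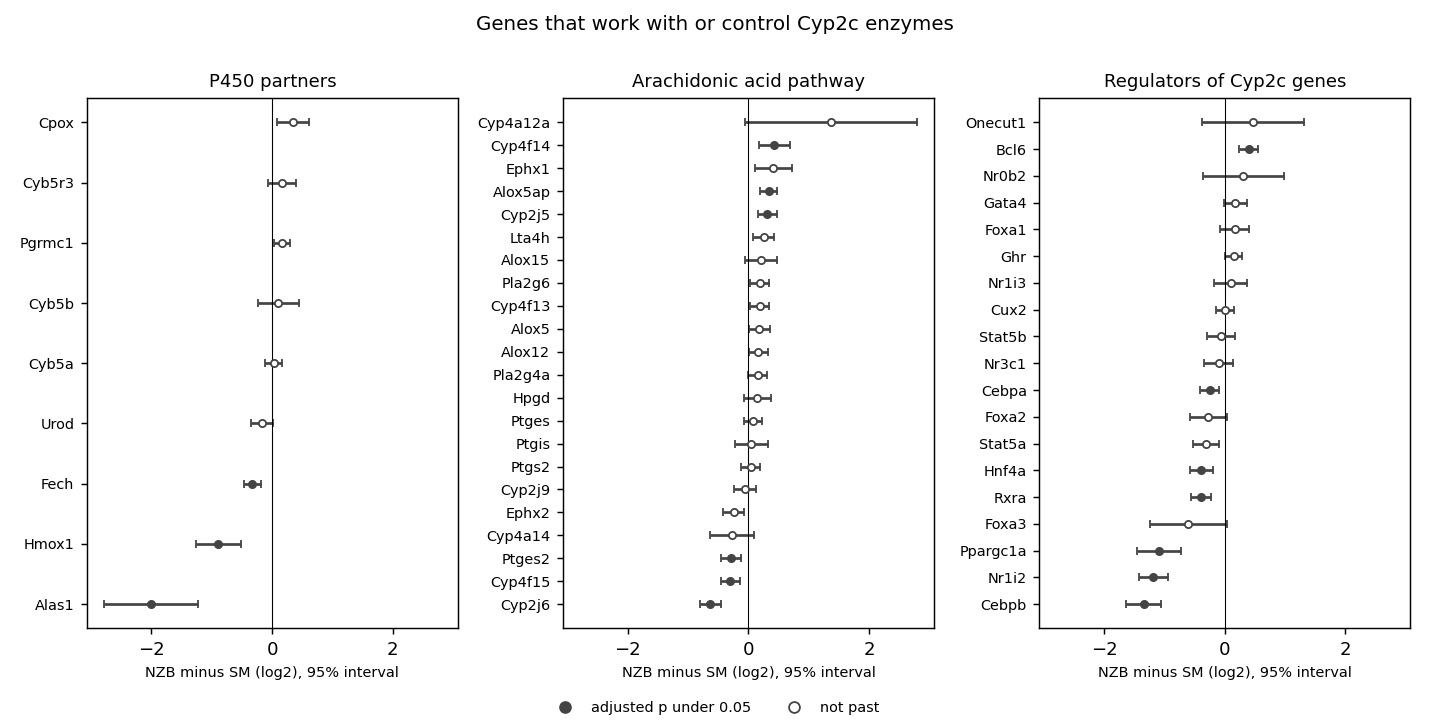
Strain difference in log2 units, NZB minus SM, with its 95% interval, for each measured gene of the 3 lists, sorted by size within a list; filled points passed the adjusted p of 0.05. Alas1 at -2.01 and Cebpb at -1.34 lie farthest to the left, and no filled point on the right exceeds 0.43.

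Markers of other cells that liver holds were counted too. Of all 18193 genes, 7.09% were higher and 11.2% lower in NZB, and lists of 3 to 8 markers give only rough shares to set beside these. The 6 measured B and plasma cell markers averaged 6.73 to 7.08 in NZB livers and 5.89 to 5.95 in SM livers, with 3 called higher, Jchain by 4.28 (SE 0.30, limma adjusted p = 4.28e-05), and 2 of them without SM replicate 2. Pou2af1, another of the 3, read under the background of 5.67 in every liver. The median difference of this list was 0.335, beside 0.021 over all genes, so Jchain carries much of the gap between its averages. The 8 Kupffer cell and macrophage markers averaged 9.30 to 9.55 in NZB livers and 9.08 to 9.24 in SM livers, with 5 higher and 1 lower, also without SM replicate 2. Of 5 measured T and NK cell markers 3 were higher, and 1 without SM replicate 2, Cd3g, which read under the background in every liver. Of 7 endothelial markers 3 were higher and 2 lower, and without SM replicate 2 these were 2 and 2. The 5 measured bile duct markers and the 6 stellate cell markers gave no call, and 1 of 3 red cell markers, Alas2, was lower. Among 5 measured markers of intestine and pancreas, Cdx2 and Cela1 were called higher, by 0.25 and 0.64. Without SM replicate 2 they differed by 0.26 and 0.61, and neither passed (limma adjusted p = 0.0625 and 0.0618). Cdx2 read 5.85 to 5.94 in NZB livers and 5.63 to 5.67 in SM livers, and the SM readings lie at about the background. The part of these cells in the Cyp2c readings was not tested.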

How the data were processed

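The deposited series table holds 1 column per mouse, with 0 columns unmatched to a sample, and no columns were left out. The deposited values were taken as log2 expression, since the submitters' processing notes name RMA (background correction, normalization and summary of probes) and the maximum, 14.9, fits 16-bit intensities in log2 (up to 16) but not in natural log (up to 11.1). The sources used here do not state the log base or the version and settings of RMA. The values are not centred on 0. No further normalization was applied. Probe sequences were not analysed.

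Probe sets were named through the platform annotation, with symbols updated by Entrez ID through a RefSeq table of GRCm38.p6: 34945 had 1 gene (34741 matched), 932 several and 9160 none. No probe set paired with several genes listed a member (0 found). NZB was set against SM in R 4.3.3 with limma 3.58.1 (lmFit, then eBayes without trend or robust estimation), two-sided, with Benjamini-Hochberg adjustment over 45037 probe sets. The fit was tested on simulated data. With 3 against 3 an exact permutation test cannot go below 0.1, so none was used. Genes of lists and neighbours were represented by their probe set with the highest mean. Some of these carry _s_at or _x_at, as for Abcc2, Fech and Hnf4a. The members and lists were chosen with earlier results of these data known, and up to 3 called genes per direction were named from each list. The alternatives were other normalizations, variance estimates, filters, a replicate block and each array left out. The filter for unmarked probe sets dropped identifiers ending in _a_at as well as those in _s_at and _x_at.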

Additional observations from a re-analysis of the deposited data

How the results depend on the processing

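The calls of Cyp2c23 and Cyp2c38 held under all alternatives run, 13 and 14, with differences of -3.28 to -3.15 and -0.63 to -0.50. Cyp2c29 and Cyp2c39 kept their direction and did not pass in any of 14. The genes near the threshold did not keep their side of it. Cyp2c55 passed in 7 of 14, with array weights (2.39, limma adjusted p = 0.0444), with the replicate block (2.42, adjusted p = 0.0377), and among probe sets above the median (2.42), unmarked probe sets (2.42, adjusted p = 0.049996) or 1 probe set per gene (2.42), and it ranged from 1.39 to 3.03 with 1 array left out. Trended and robust variances gave it an adjusted p of 0.224. Cyp2c54 passed in 4 of 14, with trended and robust variances (0.24), probe sets above the median (0.24), 1 probe set per gene (0.24) and without SM replicate 2, ranging from 0.19 to 0.29 with 1 array left out. Cyp2c50 passed in 5 of 14, with quantile normalization (0.22), trended and robust variances (0.21), array weights (0.21), probe sets above the median (0.21) and 1 probe set per gene (0.21). The cause was not tested. The last 2 settings repeat both the fit and the adjustment over fewer features. The members higher in NZB numbered 1 with quantile normalization, 2 with trended and robust variances, 2 with array weights, 1 with the replicate block, 3 above the median, 1 among unmarked probe sets, 3 with 1 probe set per gene and 0 to 1 with 1 array left out. Among unmarked probe sets 1 was lower, since Cyp2c23 is not among them. Uncalled differences changed sign for Cyp2c37 (-0.055 to 0.25 with 1 array left out, negative at -0.050, -0.036 and -0.055 without NZB replicate 1, NZB replicate 2 or SM replicate 2), Cyp2c70 (-0.096 to 0.017) and Cyp2c65 (-0.11 to 0.036 with 1 array left out). Over all probe sets 2745 were higher and 3914 lower. With 1 array left out these were 1482 to 2482 and 2259 to 3904, more than 1.5 times fewer higher without NZB replicate 2 (1763), NZB replicate 3 (1482) or SM replicate 2 (1635) and lower without NZB replicate 3 (2259) or SM replicate 2 (2482), and 1541 and 2286 with 1 probe set per gene. Quantile normalization gave 1 higher P450 partner and 6 higher and 1 lower arachidonic acid genes, and arrays left out gave 1 to 4 higher and 1 to 3 lower arachidonic acid genes. Replicate numbers share no pairing by the labels, deviations of same-numbered arrays correlated at 0.037, -0.055 and 0.025, and besides the calls named the block ended that of Pdlim1 (limma adjusted p = 0.0606).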

Other observations

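The high Cyp2c55 reading of NZB replicate 2 came with high readings of Cyp2b10, a P450 gene that the nuclear receptor CAR is known to induce. This was seen after the values were examined. On its 3 probe sets Cyp2b10 read 12.8, 12.5 and 13.1 in NZB replicate 2, and 10.8 to 11.5 in the other 2 NZB livers and 11.01 to 11.70 in SM livers. Its excess over the other NZB livers was 1.84, 1.32 and 1.72, among the 13 largest of all probe sets in that array, beside 3.10 for Cyp2c55. Between strains Cyp2b10 differed by 0.39, 0.29 and 0.47 and did not pass (limma adjusted p = 0.594, 0.595 and 0.483). Alas1 read 11.6 in that liver, above the 10.8 and 10.2 of the other NZB livers and below all SM livers. Clec2d, Sult2a2, Dbp, Gstm3, Egfr, Onecut1 and Cish were also among the largest excesses of that array. Egfr read 6.2 there and under the background of 5.67 in every other array. Sult2a2 read 10.71 and 6.43 in the other NZB livers and 10.60 there, so its excess came from NZB replicate 3 being low. Onecut1 read 7.68 and 6.13 in the other NZB livers and 8.34 there, so a low NZB replicate 3 added to its excess. Dbp read 10.23 and 10.10 there on separate probe sets, below every SM liver (10.85 to 11.63). Clec2d read 10.4 there, 8.29 and 8.26 in the other NZB livers and 10.1 to 10.3 in SM livers.

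Cyp2c29, another gene known to respond to CAR, read 14.2 in NZB replicate 2, the highest of the 6 arrays, and 14.1 in both other NZB livers. These readings lie close to the highest value in the whole table, 14.9, and compression at that end of the scale was not tested. Cyp2c37 read 10.7 there, as in NZB replicate 1. A group of 3 livers is too small to test whether 1 of them lies outside the rest, and no label sets this mouse apart. The cause of the high readings in that liver was not tested.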
